A study of Mus musculus with 8 samples.

Results

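The vascular endothelial growth factor (VEGF) system was described here in visceral white adipose tissue (vWAT) of KIKO and WT mice. Its 10 genes were taken by name from the 31053 genes of the count table: the 5 ligands Vegfa, Vegfb, Pgf, Vegfc and Vegfd, the 3 receptor tyrosine kinases Flt1, Kdr and Flt4, and the co-receptors Nrp1 and Nrp2. The rule that picks them uses no measured value, but they and the gene lists below were chosen with earlier results of these data known. KIKO mice are a knock-in knock-out model of Friedreich's ataxia. Its genetic change is carried in the germ line and so by every cell. The 4 KIKO and 4 WT animals were males of the C57BL/6 strain aged 8 months, and the WT mice were littermates. The labels give no diet treatment for either group. Bulk RNA of each animal gave 1 library, and the titles of the libraries name the depot as EWAT.

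VEGF ligands are secreted dimers that bind receptor tyrosine kinases on endothelial cells. VEGFA, the best known ligand, signals for vessel growth and permeability mainly through KDR (VEGFR2), while FLT1 (VEGFR1) binds VEGFA tightly, signals weakly and can act as a decoy, also in a soluble form. VEGFB and placental growth factor (PGF) bind FLT1, and VEGFC and VEGFD bind FLT4 (VEGFR3) of lymphatic endothelium. The neuropilins NRP1 and NRP2 present ligands to these kinases and also bind class 3 semaphorins. In adipose tissue, adipocytes are a known source of VEGFA, whose gene responds to low oxygen through hypoxia-inducible factors (HIF), and VEGFB is abundant in tissues that burn fatty acids.

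Total counts ranged from 2602189 to 3478539 in KIKO libraries and from 2936515 to 3119146 in WT libraries, and levels are given as CPM, the count relative to the library's total after scaling by TMM, edgeR's factor for differences in composition. Genes of the mitochondrial genome took 9.93% to 10.6% of the counts in KIKO libraries and 6.91% to 10.7% in WT libraries. On the first principal component WT mice 1 and 3 lay at opposite ends of their group. WT mouse 3 was at 12.6, inside the KIKO range of 4.04 to 24.0. WT mouse 1 was at -38.6, with WT mice 2 and 4 at -18.4 and -8.43. WT mouse 1 also had the lowest share of mitochondrial counts, 6.91%. Results that rest on WT mouse 3 are given with and without it. Adipoq, the adipocyte hormone adiponectin, averaged 6341 ± 497 CPM in KIKO and 4366 ± 714 CPM in WT mice, and 6 of 7 markers of epididymal epithelium had no count in any library.

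Vegfa (ENSMUSG00000023951) lies on chromosome 17 (GRCm38, 46016993 to 46032369, minus strand) with 8 coding transcripts, and Vegfb (ENSMUSG00000024962) on chromosome 19 (6982473 to 6987651, minus strand). Flt1 (ENSMUSG00000029648) and Kdr (ENSMUSG00000062960) lie on chromosome 5, at 147561604 to 147726011 and 75932827 to 75978458, both on the minus strand. Of the other members, Pgf lies on chromosome 12, Vegfc and Nrp1 on chromosome 8, Vegfd on X, Flt4 on chromosome 11 and Nrp2 on chromosome 1. The 250 bases before the RefSeq start sites of Vegfa, Vegfb, Flt1 and Kdr are shown because these are the ligand pair and the receptor pair whose ratios were compared. They run from 5′ to 3′ on the minus strand of GRCm38.p6, at chr17:46032378-46032627 for Vegfa, chr19:6987652-6987901 for Vegfb, chr5:147726012-147726261 for Flt1 and chr5:75978456-75978705 for Kdr. Capitals mark the GC box GGGCGG and the TATA box TATAAA, searched on both strands.
Vegfa: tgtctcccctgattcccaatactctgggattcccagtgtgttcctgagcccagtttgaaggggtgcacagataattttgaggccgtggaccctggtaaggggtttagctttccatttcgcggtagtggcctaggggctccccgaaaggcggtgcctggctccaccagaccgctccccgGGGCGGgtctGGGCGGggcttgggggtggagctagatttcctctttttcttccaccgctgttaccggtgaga
Vegfb: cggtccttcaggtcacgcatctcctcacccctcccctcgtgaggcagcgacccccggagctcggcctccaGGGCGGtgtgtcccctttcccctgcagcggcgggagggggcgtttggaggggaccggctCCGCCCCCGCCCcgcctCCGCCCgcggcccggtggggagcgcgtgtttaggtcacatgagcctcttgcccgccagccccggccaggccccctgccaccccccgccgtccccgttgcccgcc
Flt1: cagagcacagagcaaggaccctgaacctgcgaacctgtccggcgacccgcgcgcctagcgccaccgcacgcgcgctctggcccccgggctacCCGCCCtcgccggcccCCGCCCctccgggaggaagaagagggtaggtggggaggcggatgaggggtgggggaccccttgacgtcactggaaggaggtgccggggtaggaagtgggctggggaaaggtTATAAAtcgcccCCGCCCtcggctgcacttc
Kdr: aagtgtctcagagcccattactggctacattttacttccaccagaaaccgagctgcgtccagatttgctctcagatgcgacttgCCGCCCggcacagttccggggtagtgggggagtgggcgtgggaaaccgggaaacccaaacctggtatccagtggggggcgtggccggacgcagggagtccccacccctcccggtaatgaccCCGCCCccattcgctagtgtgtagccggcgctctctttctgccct
The Vegfb window held 4 GC boxes and was 76.4% G and C, against 2 GC boxes and 59.2% for Vegfa. Flt1 had 3 GC boxes and a TATA box at positions -31 to -26 before its start, and Kdr had 2 GC boxes and no TATA box. Over 32851 mouse windows of the same length, 32.7% held a GC box and 12.4% a TATA box. The core of the hypoxia response element, ACGTG on either strand, is in 16.6% of all windows, and none of the first-start windows of the 10 genes held it. A window before a second, internal Vegfa start site, which lies within the gene, held 1 copy. Only the 250 bases before each start were searched, so elements farther away could not be found. ETS factors, a family that includes regulators of endothelial genes, bind around a GGAA core, which is in 93.4% of all windows. It was found 6 times for Vegfa, 4 times each for Flt1 and Kdr and 1 time for Vegfb, and ACGTG and GGAA matches were left in lower case. These matches are a description of letters, not of binding.

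Vegfa RNA was lower in every KIKO mouse than in every WT mouse, and so was Vegfd, while Vegfb was higher in every KIKO mouse. None of these differences passed the adjusted test. Vegfa had 52.8, 60.3, 69.7 and 59.8 CPM in KIKO mice 1 to 4, against 131, 69.96, 86.3 and 119 CPM in WT mice 1 to 4. The 2 groups came close at KIKO mouse 3 and WT mouse 2, and the WT mice spread more widely. The means were 60.6 ± 6.91 CPM in KIKO and 101.5 ± 28.3 CPM in WT mice (SD, n = 4 each). The log2 fold change was -0.74 (SE 0.18, 95% interval -1.12 to -0.36), with an unadjusted p of 0.000827 and an adjusted p of 0.0709 in edgeR's quasi-likelihood test over 11080 genes. A 2-sided exact permutation test of the mean log2 CPM gave p = 0.0286, the smallest that 70 assignments of 4 against 4 mice allow, and p = 0.0571 with RLE size factors, under which the groups overlapped. The counts do not separate the 8 coding transcripts, so splice forms of different receptor affinity could not be compared.

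Vegfb was the most abundant ligand. Its level was 283, 269, 300 and 279 CPM in KIKO mice 1 to 4 and 252, 227, 261 and 252 CPM in WT mice 1 to 4. The lowest KIKO value lay just above the highest WT value. The means were 283 ± 13.2 CPM in KIKO and 248 ± 14.7 CPM in WT mice. The edgeR log2 fold change of 0.19 (SE 0.11, interval -0.04 to 0.42) had an adjusted p of 0.420 (unadjusted p = 0.105), and the exact permutation p was 0.0286, or 0.0571 when libraries were scaled by total count alone.

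Vegfd, which encodes a ligand of the lymphatic receptor FLT4, had 30.0, 44.4, 36.0 and 36.9 CPM in KIKO mice 1 to 4, against 52.9, 57.5, 48.5 and 60.3 CPM in WT mice 1 to 4. Every KIKO value was below every WT value, and the nearest pair was KIKO mouse 2 and WT mouse 3. The log2 fold change was -0.58 (SE 0.14, interval -0.88 to -0.27, edgeR unadjusted p = 0.00105, adjusted p = 0.0774), and the exact permutation p was 0.0286. The other ligands were near the limit of counting and did not pass the filter on low counts, so the main edgeR fit left them out. In edgeR without a filter, or with a filter of 1 CPM in 4 libraries, neither was called. Pgf had 13, 9, 9 and 8 reads in KIKO and 14, 10, 5 and 9 reads in WT mice, or 3.29 ± 0.84 CPM in KIKO and 3.04 ± 1.13 CPM in WT mice (exact permutation p = 0.714). Vegfc, the main lymphatic growth factor, had 5, 1, 12 and 4 reads in KIKO and 1, 2, 4 and 3 reads in WT mice (p = 0.314 by the same permutation test). The groups of both overlapped, and a difference in either was not detectable at this depth.

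**Figure D1:**
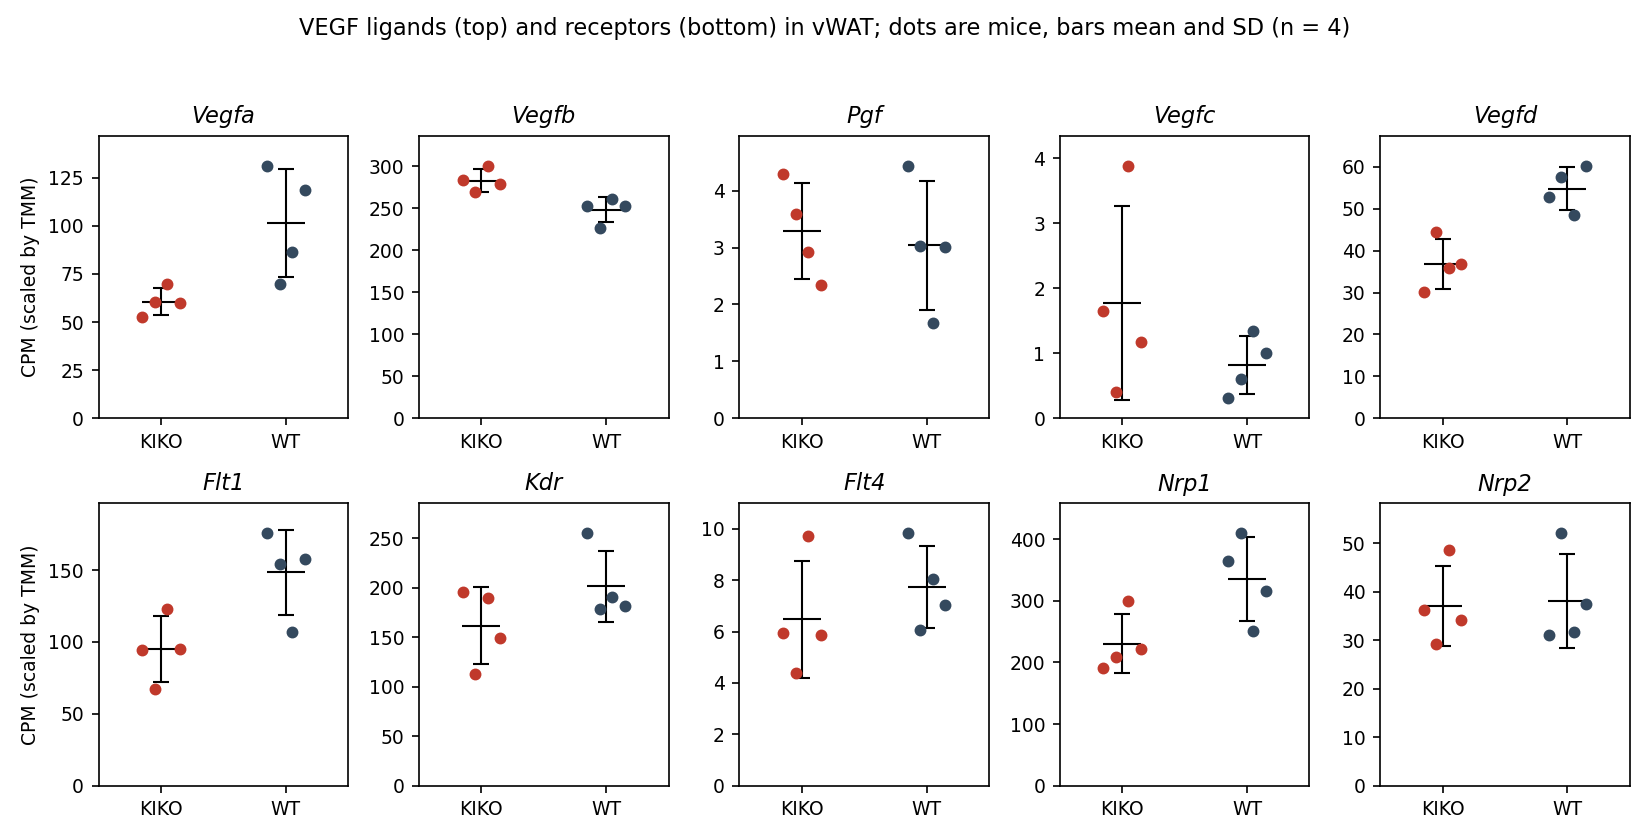
Level of each VEGF gene in each mouse, in CPM scaled by TMM, for KIKO (left of each panel) and WT mice. Dots are mice and bars are mean and SD of 4 mice. Vegfa and Vegfd dots of KIKO mice lie below all WT dots, Vegfb dots of KIKO mice lie above, and in the other 7 panels the groups overlap.

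The mean level of each of the 3 receptor kinases was lower in KIKO than in WT mice, and for each the mice of the groups overlapped. Flt1 had 94.7, 67.5, 123 and 95.2 CPM in KIKO mice 1 to 4, against 176, 154, 107 and 157 CPM in WT mice 1 to 4. The overlap came from KIKO mouse 3 and WT mouse 3 alone. The means were 95.1 ± 22.7 CPM in KIKO and 148 ± 29.4 CPM in WT mice, with a log2 fold change of -0.64 (SE 0.18, interval -1.02 to -0.26, edgeR unadjusted p = 0.00263, adjusted p = 0.1002) and an exact permutation p of 0.0571. The table gives no separate row for the soluble form of FLT1.

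Kdr, the main signalling receptor of blood endothelium, had 195, 113, 190 and 150 CPM in KIKO mice 1 to 4, against 255, 179, 191 and 182 CPM in WT mice 1 to 4. KIKO mice 1 and 3 lay within the range of the WT mice, and WT mouse 1 lay far above its group. The means were 162 ± 38.6 CPM in KIKO and 202 ± 36.0 CPM in WT mice. The log2 fold change was -0.32 (SE 0.17, interval -0.68 to 0.05, edgeR adjusted p = 0.384). It was -0.18 without KIKO mouse 2 and -0.18 without WT mouse 1. Flt4, the lymphatic receptor, rested on 11 to 31 reads per library. It averaged 6.48 ± 2.27 CPM in KIKO and 7.74 ± 1.61 CPM in WT mice, with a log2 fold change of -0.24 (interval -0.84 to 0.36, edgeR adjusted p = 0.715). This interval leaves the direction unsettled. Leaving out 1 mouse moved the value between -0.50, without KIKO mouse 3, and -0.10, without WT mouse 1, and it was -0.11 without KIKO mouse 2.

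The co-receptors differed from each other. Nrp1 had 191, 209, 299 and 221 CPM in KIKO mice 1 to 4, against 365, 410, 251 and 317 CPM in WT mice 1 to 4. As for Flt1, the groups overlapped only at KIKO mouse 3 and WT mouse 3. The means were 230 ± 47.8 CPM in KIKO and 335 ± 68.1 CPM in WT mice, and the log2 fold change was -0.54 (SE 0.17, interval -0.90 to -0.19, edgeR unadjusted p = 0.00531, adjusted p = 0.130, exact permutation p = 0.0571). Nrp2 had 36.3, 29.2, 48.6 and 34.3 CPM in KIKO mice 1 to 4 and 31.1, 52.1, 31.8 and 37.5 CPM in WT mice 1 to 4. Its groups lay on top of each other, the log2 fold change was -0.04 (SE 0.19, interval -0.44 to 0.37, edgeR adjusted p = 0.943), and leaving out 1 mouse moved it between -0.19 and 0.15. An antisense gene that overlaps Nrp2 over 3351 bases, Gm29083, had no count in any library.

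Of the 10 genes, 8 passed the filter on low counts and 0 of these passed edgeR's adjusted p under 0.05, a threshold passed by 0.677% of all 11080 genes, 0.397% with a lower and 0.28% with a higher level in KIKO. At an unadjusted p under 0.05 there were 4, Vegfa, Vegfd, Flt1 and Nrp1, all lower in KIKO, where 16.2% of all genes had such a p and 9.06% had it with a lower level. The groups of 4 did not overlap for 3 of 8, with 2 below and 1 above, against 8.45% of all genes and 4.56% with all KIKO mice below. The log2 fold change was below 0 for 7 of 8, against 51% of all genes, and the median was -0.43, against -0.01 over all genes tested.

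**Figure D2:**
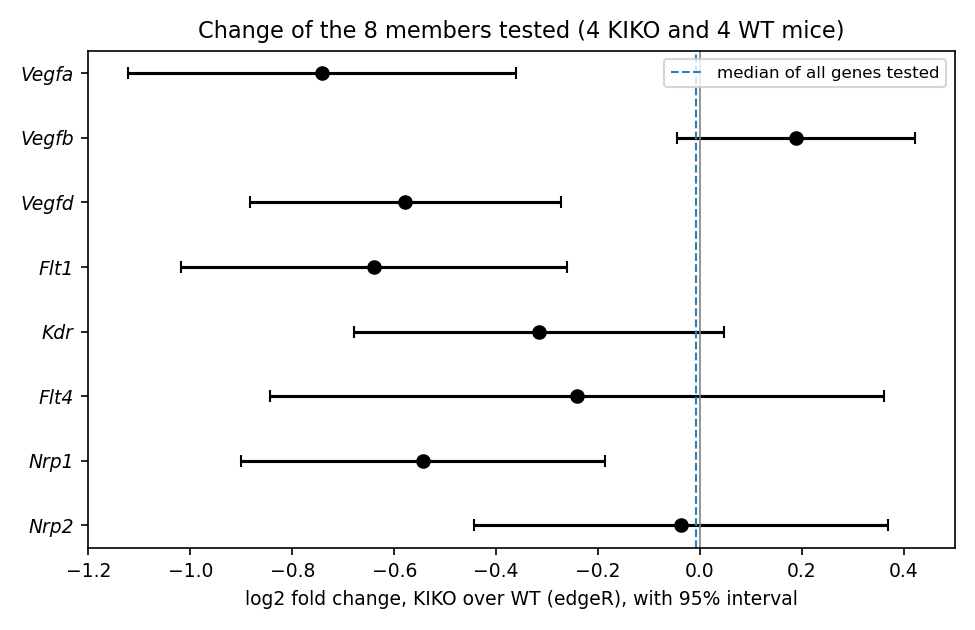
Log2 fold change of the 8 tested genes, KIKO over WT, with its 95% interval from edgeR. The intervals of Vegfa, Vegfd, Flt1 and Nrp1 lie below 0, those of the other 4 genes cross it, and the dashed line marks the median of all genes tested at -0.01.

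Whether these 4 genes passed depended on the test and on WT mouse 3. DESeq2, the tool of the study, called Vegfa (adjusted p = 0.0107), Vegfd (0.0238), Flt1 (0.0310) and Nrp1 (0.0497) lower in KIKO, and it called 284 of 5941 genes in all. edgeR without a filter on low counts called the same 4 genes, with adjusted p values of 0.00365, 0.0295, 0.0126 and 0.0353 in that order and 382 of 18092 genes in all. Without WT mouse 3, edgeR called the same 4 at 0.0218, 0.0232, 0.0167 and 0.0234, and 654 genes in all. Without WT mouse 1 it called none of them, with Vegfa at a log2 fold change of -0.59 (adjusted p = 0.127). In limma-voom, limma-trend and every other setting tried, none of the members passed. The log2 fold change of Vegfa lay between -0.89 and -0.59 over all settings, that of Vegfd between -0.67 and -0.49, that of Flt1 between -0.78 and -0.50 and that of Nrp1 between -0.69 and -0.43. The settings thus moved the side of the threshold and not the direction of these 4 genes. Levels of all tested genes also shifted with transcript length, by a Spearman's rho across genes of -0.142 to -0.0529 in KIKO and -0.0836 to 0.193 in WT libraries, with WT mouse 3 at -0.0836. With an offset for length and GC content, the log2 fold changes were -0.80 for Vegfa, -0.56 for Vegfd, -0.50 for Flt1, -0.49 for Nrp1 and -0.20 for Kdr.

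**Figure D3:**
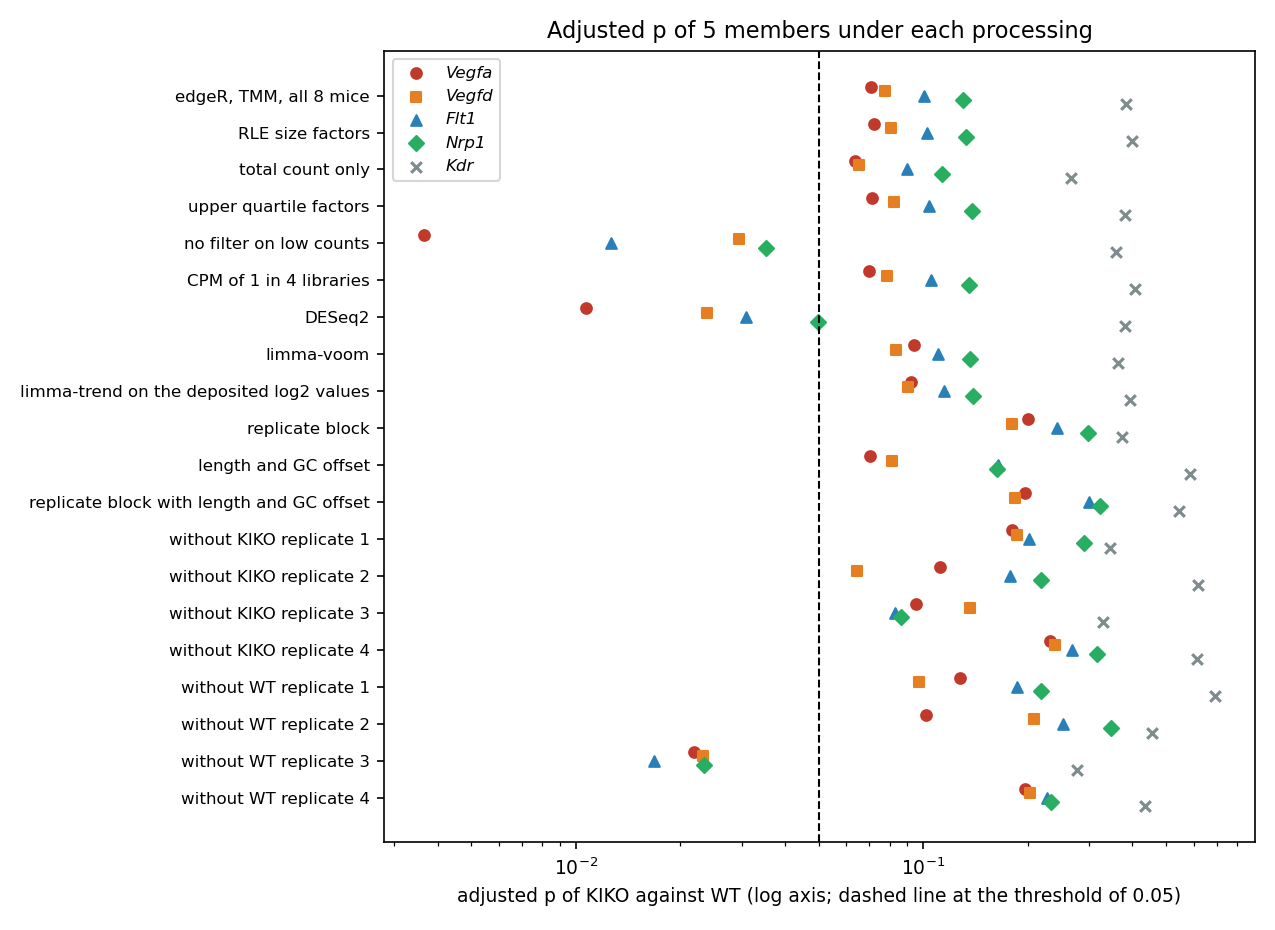
Adjusted p of Vegfa, Vegfd, Flt1, Nrp1 and Kdr for KIKO against WT under each processing, on a log axis with the threshold of 0.05 as a dashed line. Vegfa, Vegfd, Flt1 and Nrp1 lie left of the line with DESeq2, without a filter on low counts and without WT mouse 3, and right of it elsewhere, and Kdr lies right of it throughout.

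Ratios between genes of the same library do not depend on scaling between libraries. The count ratio of Vegfa to Vegfb was 18.7%, 22.5%, 23.2% and 21.4% in KIKO mice 1 to 4, against 52.0%, 30.8%, 33.1% and 47.0% in WT mice 1 to 4. All KIKO ratios were below all WT ratios, also below that of WT mouse 3. The mean log2 ratio was 0.90 lower (difference -0.90, exact permutation p = 0.0286, adjusted p = 0.143 over the 20 ratios compared), and no ratio of the 20 passed after adjustment. Among the reads of the 5 ligands, Vegfa took 15.7% ± 1.11 in KIKO and 24.5% ± 4.75 in WT mice, Vegfd 9.57% ± 1.61 in KIKO and 13.5% ± 1.89 in WT mice, and Vegfb 73.4% ± 2.06 in KIKO and 61.0% ± 4.03 in WT mice (SD, n = 4 each). These shares of reads are a description of the same counts.

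Among receptor kinases, the ratio of Flt1 to Kdr was 48.5%, 59.9%, 64.8% and 63.6% in KIKO mice 1 to 4 and 68.8%, 86.1%, 56.0% and 86.4% in WT mice 1 to 4 (difference in mean log2 -0.31, exact permutation p = 0.171). The groups overlapped through WT mouse 3, without which the difference was -0.44. Of neuropilin reads, Nrp2 made up 13.9% ± 1.55 in KIKO and 10.2% ± 1.63 in WT mice, and these shares did not overlap. This share was not among the 20 ratios compared and was not tested. The ratio of Nrp2 to Kdr, which was among them, overlapped between groups (difference 0.30, exact permutation p = 0.4). The ratio of Nrp1 to Kdr overlapped between groups (difference -0.21, exact permutation p = 0.514), and the difference ran from -0.33, without KIKO mouse 2, to -0.022, without KIKO mouse 1. Leaving out WT mouse 2 gave -0.049 and leaving out WT mouse 3 gave -0.32.

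The receptor kinases are made largely by endothelial cells, so they were set beside endothelial markers. Nrp1 was set beside the same markers, although its source among the cells of the tissue was not tested. In bulk RNA, fewer cells of a type and less RNA per cell cannot be told apart. The summed level of 15 blood endothelial markers was 701 to 975.4 CPM in KIKO and 970 to 1366 CPM in WT mice, and none of the 15 was at 0 in all libraries. All 14 of the tested markers had a log2 fold change below 0, with a median of -0.35, and 1, Robo4, a receptor of endothelial barrier function, passed (-0.79, SE 0.15, edgeR adjusted p = 0.0326). Over all tested genes, 0.397% passed with a lower level. The study had already named Robo4 as lower in KIKO mice, so this call is no independent result. The groups did not overlap for 2 of the tested markers. These were Robo4, at 41.8 ± 6.94 CPM in KIKO and 72.5 ± 8.92 CPM in WT mice, and Gpihbp1, at 165 ± 11.5 CPM in KIKO and 253 ± 70.8 CPM in WT mice. Relative to the sum of all 15 markers, Kdr was at 23.6%, 16.1%, 19.5% and 18.5% in KIKO mice 1 to 4 and at 18.7%, 17.3%, 19.1% and 18.8% in WT mice 1 to 4. The groups overlapped and the difference in mean log2 was 0.06 (exact permutation p = 0.686). Flt1 relative to the same sum differed by -0.26 (p = 0.171) and Nrp1 by -0.15 (p = 0.457) in the exact permutation test. With the markers averaged on the log2 scale, the differences were 0.01 for Kdr, -0.30 for Flt1 and -0.19 for Nrp1. The next values are again relative to the sum. Without WT mouse 4, that of Flt1 was -0.17. The difference of Nrp1 ran from -0.24, without WT mouse 3, to -0.022, without WT mouse 2, and was -0.062 without KIKO mouse 1. Kdr, Flt1 and Nrp1 thus overlapped between groups when set against endothelial markers, and the part of endothelial content in their levels was not tested.

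The ligands were also set beside adipocyte markers. Of these 10 genes, 7 had a log2 fold change above 0 and 3, Cidec (-0.24), Retn (-0.10) and Adrb3 (-0.14), below it, with a median of 0.15. Their summed level was 49136 to 66231 CPM in KIKO and 37938 to 44659 CPM in WT mice, and these ranges did not overlap, although 0 of the 10 passed edgeR's adjusted test and 2 had an unadjusted p under 0.05. Such a p was found for 16.2% of all tested genes. Most of the difference in the sum lay in Adipoq, given above, and in Cfd, the adipokine adipsin, at 29498 ± 9186 CPM in KIKO and 17978 ± 2405 CPM in WT mice. Vegfa relative to this sum was 0.0797%, 0.115%, 0.142% and 0.107% in KIKO mice 1 to 4, against 0.294%, 0.184%, 0.201% and 0.276% in WT mice 1 to 4. The difference in mean log2 was -1.11 (exact permutation p = 0.0286, adjusted p = 0.143), or -0.88 when the markers were averaged on the log2 scale so that Cfd weighed no more than the others. Vegfd gave -0.99, or -0.76 with averaged markers, and the groups did not overlap for either gene in either form. Vegfb relative to adipocyte markers differed by -0.21 (exact permutation p = 0.143), and by 0.02 with averaged markers. Relative to endothelial markers, Vegfa differed by -0.31 (p = 0.171) and Vegfd by -0.19 (p = 0.429), with overlap, whereas Vegfb was higher by 0.58 (p = 0.0286, adjusted p = 0.143) without overlap, all by exact permutation. The Vegfa value was -0.17 without WT mouse 4. The Vegfd value ran from -0.36, without KIKO mouse 2, to -0.089, without WT mouse 4, and was -0.32 without WT mouse 1, -0.092 without KIKO mouse 1 and -0.10 without KIKO mouse 3.

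**Figure D4:**
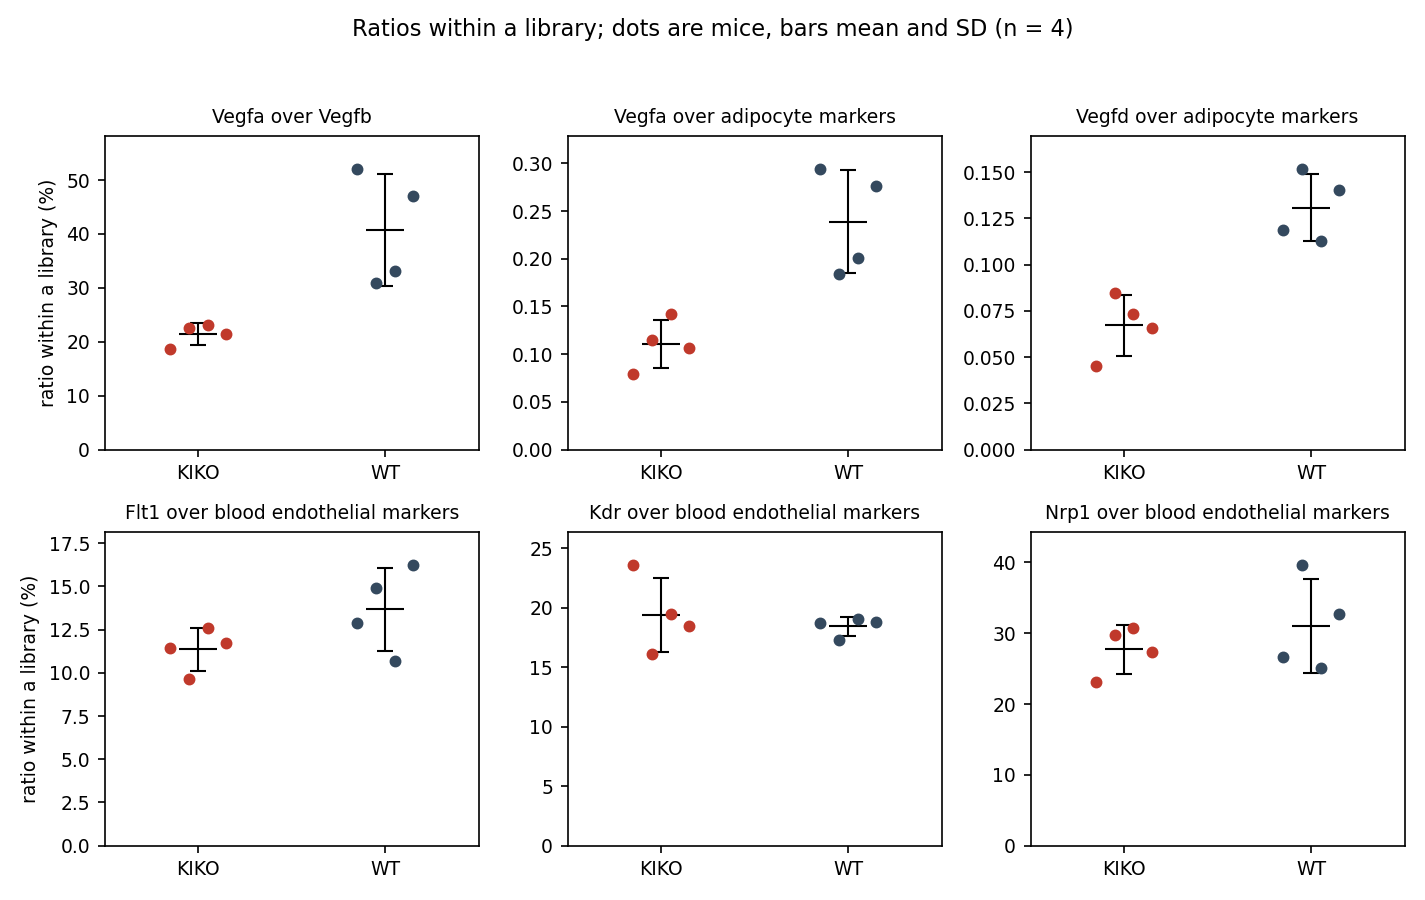
Count ratios within each library, in percent, for KIKO (left) and WT mice, with dots for mice and bars for mean and SD of 4 mice. In the upper panels, the KIKO dots of Vegfa over Vegfb and of Vegfa and Vegfd over adipocyte markers lie below all WT dots. In the lower panels, Flt1, Kdr and Nrp1 over blood endothelial markers overlap between groups.

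Markers of other cell types were summed in the same way. The summed level of 9 mural markers, the genes of pericytes and smooth muscle, was 433 to 583 CPM in KIKO and 599 to 659 CPM in WT mice. Macrophage markers summed to 2074 to 2696 CPM in KIKO and 1862 to 2085 CPM in WT mice, and fibroblast and progenitor markers to 3165 to 3742 CPM in KIKO and 2603 to 2994 CPM in WT mice. The mural and the fibroblast sums did not overlap between groups. Of the 9 tested mural genes, 8 had a log2 fold change below 0. Of the 8 fibroblast genes, 5 were above 0 and 3 below, and most of the difference in the sum lay in Dcn, decorin, at 2776 ± 217 CPM in KIKO and 2091 ± 126 CPM in WT mice. Lymphatic markers, which bear on Flt4 and Vegfc, summed to 313 to 581 CPM in KIKO and 298 to 425 CPM in WT mice, with overlap. Nearly all of this sum came from Lyve1 and Pdpn, which other cell types also express. Prox1, the defining transcription factor of lymphatic endothelium, averaged 1.40 ± 0.18 CPM in KIKO and 3.40 ± 1.54 CPM in WT mice. Mmrn1 averaged 0.25 ± 0.50 CPM in KIKO and 1.40 ± 1.24 CPM in WT mice. Foxc2, of the same list, went the other way, at 2.85 ± 1.45 CPM in KIKO and 2.01 ± 0.32 CPM in WT mice. Prox1, Mmrn1 and Foxc2 were too low for the main edgeR test. Mesothelial markers summed to 259 to 497 CPM in KIKO and 238 to 346 CPM in WT mice, and haemoglobin and other red cell genes to 4954 to 6691 CPM in KIKO and 4647 to 9264 CPM in WT mice. Markers of other leukocytes summed to 42.8 to 71.1 CPM in KIKO and 35.4 to 47.2 CPM in WT mice. In edgeR, 4 genes of these lists passed, all higher in KIKO: Lyz2, the lysozyme of macrophages and other myeloid cells (0.95, adjusted p = 0.0326), the mesothelial and epithelial genes Krt19 (1.15, 0.0326) and Upk1b (0.90, 0.0355), and Cpa3, a mast cell protease (1.58, 0.0255). Over all tested genes, 0.28% passed with a higher level. The study had already named Lyz2 and Cpa3 among the changed genes of these mice. The lists were chosen with such results known, so these calls are no independent result. The lists of these 4 genes did not rise throughout. Log2 fold changes were below 0 for 2 of 10 macrophage genes, 1 of 6 mesothelial genes and 1 of 6 other leukocyte genes. The lowest values were -0.97, -0.18 and -1.24 in that order. The part of these cell types in the levels of the VEGF genes was not tested.

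Divided by the length of the longest coding transcript, Vegfb stood first in both genotypes, at 221 ± 10.3 CPM per kb in KIKO and 194 ± 11.5 CPM per kb in WT mice. Nrp1 followed at 64.0 ± 13.3 CPM per kb in KIKO and 93.3 ± 18.9 CPM per kb in WT mice, and its range was apart from those of Vegfb and of the next gene. Kdr came next at 27.3 CPM per kb in KIKO and 34.1 in WT mice, with Vegfa at 17.6 in KIKO and 29.4 in WT, Vegfd at 17.97 in KIKO and 26.8 in WT, and Flt1 at 13.8 in KIKO and 21.5 CPM per kb in WT mice. Within each genotype, neighbours in this stretch overlapped in range, so the order of neighbours was not resolved. The range of Kdr lay wholly above that of Flt1 in both genotypes. The means of Vegfa and Vegfd changed places between KIKO and WT mice. Nrp2 lay below this stretch with a range apart, at 5.52 CPM per kb in KIKO and 5.67 in WT mice. Pgf (1.58 in KIKO, 1.46 in WT), Flt4 (1.04 in KIKO, 1.24 in WT) and Vegfc (0.73 in KIKO, 0.33 CPM per kb in WT) were lowest, and Pgf and Flt4 overlapped in range. The place of Vegfa depended on the transcript taken. Its longest coding transcript has 3451 bases and the median one 1143, and with median lengths the mean over all 8 mice was 70.9 CPM per kb for Vegfa, which put it between Nrp1 at 78.6 and Kdr at 30.7. The study's text names a whole-transcript kit and the labels a digital mRNA-seq service. If the second counts transcript ends, counts do not scale with length, and the order of the means in plain CPM differed by genotype, with Nrp1 below Vegfb in KIKO (230 and 283 CPM) and above it in WT mice (335 and 248 CPM). The ranges of Nrp1 and Vegfb overlapped within each genotype. In WT mouse 3, Nrp1 (251 CPM) lay below Vegfb (261 CPM), and in the other WT mice above it.

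Of the receptors' partners at the membrane, 13 of 14 genes were tested, of which 1 rose and 2 fell. Over all tested genes, 0.28% passed with a higher and 0.397% with a lower level in KIKO. Hspg2, perlecan, a basement membrane proteoglycan known to bind VEGF, fell to 85.2 ± 10.2 CPM in KIKO, against 140 ± 12.5 CPM in WT mice (log2 fold change -0.72, SE 0.13, edgeR adjusted p = 0.0326). Ptprb, the endothelial phosphatase VE-PTP, fell to 158 ± 13.3 CPM in KIKO, against 262 ± 61.3 CPM in WT mice (-0.73, SE 0.15, adjusted p = 0.0453). Dab2, an adaptor for endocytosis of receptors that macrophages also express, rose to 126 ± 12.6 CPM in KIKO, against 84.2 ± 3.12 CPM in WT mice (0.58, SE 0.12, adjusted p = 0.0415). DESeq2 called the same 3 genes, limma-voom and limma-trend called Hspg2 and Dab2, and with the offset for length and GC content Dab2 alone passed. Leaving out WT mouse 2, WT mouse 4 or any 1 KIKO mouse ended all 3 calls, and leaving out WT mouse 1 left Hspg2 alone. The median of the list was -0.15.

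No gene passed in the other 8 lists in edgeR. DESeq2, limma-voom and limma-trend called none of their genes either. Without WT mouse 3, where edgeR called 654 of 11261 genes, 369 of them lower in KIKO, it called 6 of the listed genes lower, namely Ptk2, Plxna2, Plxna4, Arnt, Hif3a and Zfp36l1. Without a filter on low counts it called Plxna2 and Hif3a lower, and without WT mouse 1 it called Hspb1 higher. Downstream signalling of the receptors was followed in 27 tested genes with a median log2 fold change of -0.05, and 7 had an unadjusted p under 0.05. Over all tested genes 16.2% had such a p, and the counts in the other lists have the same background. The 3 with the smallest adjusted p were Ptk2, focal adhesion kinase (-0.50, adjusted p = 0.115), Mapk3, the kinase ERK1 (-0.46, 0.144), and Hspb1, a small heat shock protein (0.47, 0.177), all by edgeR. Among 12 semaphorins and plexins, the other ligands and partners of neuropilins, the median was -0.17, 3 had an unadjusted p under 0.05, and the first were Plxna2 (-0.74, edgeR adjusted p = 0.121), Plxna4 (-0.63, 0.139) and Sema3g (-0.40, 0.170). Of 5 tested genes for processing of VEGFC and VEGFD, Ccbe1, a cofactor of VEGFC cleavage, had the smallest adjusted p (-0.73, edgeR adjusted p = 0.220) and alone had an unadjusted p under 0.05, and the median was -0.24.

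Vegfa's known regulators were also without a call in edgeR. An unadjusted p under 0.05 was found for 16.2% of all tested genes. The 8 tested HIF regulators had a median of -0.06, and 1, Egln3, a HIF prolyl hydroxylase that is itself induced by HIF, had an unadjusted p under 0.05, at 4.94 ± 0.57 CPM in KIKO and 2.81 ± 0.82 CPM in WT mice (log2 fold change 0.81, edgeR adjusted p = 0.217). The HIF subunits Hif1a (-0.06) and Epas1 (-0.17) had intervals of -0.43 to 0.31 and -0.46 to 0.13. The 17 tested hypoxia targets, of 20 in the table, had a median of -0.01, the same to 2 decimals as all genes. Those with the smallest adjusted p went both ways, with Eno1, a glycolytic enzyme, at 0.48 (edgeR adjusted p = 0.196), Bnip3, a mitophagy receptor, at -0.40 (0.234) and Ddit4, an inhibitor of mTORC1, at -0.64 (0.327). Only the first 2 of these, Eno1 and Bnip3, had an unadjusted p under 0.05. Of 8 other regulators of Vegfa RNA, median -0.10, the first were Zfp36l1, which destabilises Vegfa mRNA (-0.43, edgeR adjusted p = 0.237), Elavl1, which stabilises AU-rich mRNAs (-0.37, 0.263), and Esrra, a nuclear receptor (-0.30, 0.670), and 2 had an unadjusted p under 0.05.

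Genes that endothelial cells are known to induce under VEGF gave a median of -0.01 over 11 tested genes, of 16 listed. Egr1, an immediate early transcription factor, was at 0.69 (edgeR adjusted p = 0.127), Vcam1, an adhesion molecule, at -0.62 (0.175), and Rcan1, a calcineurin inhibitor, at 0.35 (0.274), and these 3 alone had an unadjusted p under 0.05. Such a p was found for 16.2% of all tested genes. Of 6 tested angiogenesis inhibitors, with a median of -0.10, Cd36, the thrombospondin receptor that is also a fatty acid transporter of adipocytes, was at -0.27 (edgeR adjusted p = 0.279) and alone had an unadjusted p under 0.05. Serpinf1, which encodes PEDF, was at 0.29 (0.385) and Thbs1 at -0.29 (0.766).

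Across the 8 libraries, Flt1 and Nrp1 followed each other with a Pearson's r of 0.889, and of 0.757 after each genotype's mean was removed. For Kdr and Flt4 these values were 0.833 and 0.801. Vegfa and Vegfb had an r of -0.440 over all libraries and of 0.572 within genotype, so their opposite course lay between the genotypes and not among mice of 1 genotype. Vegfa and Vegfd had 0.741 and 0.177. These correlations share the same libraries and their composition, and are given as a description. Of all tested genes, the log2 CPM of Edem3 (r = 0.974) and Tctn1 (0.973) was among the most like that of Vegfa over the 8 libraries. For Flt1 the most similar were Aox1 (0.982), Tnrc6c (0.977) and Pcdhgc5 (0.966), and for Kdr Pex26 (0.983), Gfod1 (0.969) and Pgp (0.959). None of these 8 genes passed the adjusted test between genotypes, and with 8 libraries and 11080 genes such values are the top of a long ranking.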

How the data were processed

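Raw counts per gene, which the authors deposited with 1 column per mouse, were used. According to the study's methods and the labels, the processing used Trimmomatic for trimming, HISAT2 for alignment to GRCm38 and DESeq2, and the methods add StringTie for the counts. The annotation release and the strand setting are not given in the sources used here. The authors also deposited log2 values of scaled counts plus 1, used only for limma-trend. Of 31053 gene IDs, 31011 were found in GENCODE vM21, which gave symbols and positions.

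Counts were tested in R 4.3.3 with edgeR 4.0.16 (filterByExpr by genotype, TMM, quasi-likelihood test, Benjamini-Hochberg over 11080 genes, threshold 0.05). Alternatives were other normalizations and filters, DESeq2 1.42.0, limma 3.58.1, the replicate number as a block, a length and GC offset (mgcv 1.9.3) and leaving out each mouse. Single genes and 20 ratios of raw counts were compared by 2-sided exact permutation over 70 assignments. Marker and pathway lists received no set test. Promoters came from RefSeq (GRCm38.p6), where all 10 symbols matched. Steps were tested on simulated counts. No 2 libraries of the same genotype were duplicates, and pairs across genotypes were not checked for duplicates. Members and lists were chosen with earlier results of these data known. Genes named besides the 10 members are those of a list that passed, the up to 3 of each pathway list with the smallest adjusted p, up to 2 of a marker list, and up to 3 genes most correlated with Vegfa, Kdr and Flt1. Adrb3, Cidec, Retn, Lyve1, Pdpn, Prox1, Mmrn1, Foxc2, Hif1a, Epas1, Arnt, Hif3a and Gm29083 were added after their values were seen. The targeted gene is not reported here. P values set the difference between genotypes against the spread between mice.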

Additional observations from a re-analysis of the deposited data

Results flagged for a closer look

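In groups of 4 mice, a value was looked at again where its gap to the nearest other mouse, as a share of the group's range, passed Dixon's 95% critical value for 4 samples. Chance alone gives about 1 such value in 20 groups, and 4 of the 80 groups scanned had one. The Kdr level of WT mouse 1, 255 CPM, stood above the other WT mice at 179 to 191 CPM, with a gap of 0.845 of the range. The summed blood endothelial markers of the same mouse, 1366 CPM, stood above 970 to 1035 CPM, with a gap of 0.837 of the range, and its ratio of Kdr to these markers, 18.7%, lay among the other WT mice. The summed epididymal epithelium markers stood apart in KIKO mouse 2, at 1.20 CPM against 0.29 to 0.33 CPM, with a gap of 0.959 of the range. In WT mouse 3 they were at 0.33 CPM against 0 in the other WT mice, a gap of 1.0 of the range. Both rest on 7 reads of Rnase10 in all.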

How the results depend on the processing

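Of the members, 0 passed in the main edgeR analysis and 4 passed without a filter on low counts and 4 in DESeq2, and the count ran between 0 and 4 when 1 mouse was left out. The cause of the first 2 changes was not tested. Over the pathway lists, 3 genes passed, against 5 without a filter, 0 with the replicate block, 1 with the length and GC offset, 0 with both together and 0 to 9 when 1 mouse was left out. Over all genes, 75 passed, against 382 without a filter, 284 in DESeq2, 40 in limma-voom, 45 in limma-trend, 32 with the offset, 6 with the replicate block and offset together and 0 with the replicate block alone, where 1427 genes had an unadjusted p under 0.05. Leaving out 1 mouse gave 0 to 654. The count was 654 without WT mouse 3, 48 without WT mouse 1, 4, 19 and 18 without KIKO mice 1, 2 and 3, and 0 when KIKO mouse 4, WT mouse 2 or WT mouse 4 was left out, where 1328, 1344 and 1533 genes had an unadjusted p under 0.05. Nrp2 turned to 0.081 with the offset and 0.089 with the replicate block and offset, and ran from -0.19 to 0.15 when 1 mouse was left out. The log2 difference of Kdr to endothelial markers ran from -0.040, without KIKO mouse 1, to 0.14. The other 7 tested members kept their direction in every setting that gave them an adjusted p, which DESeq2 did not for Flt4. Pairing of the mice by replicate number was not seen. Same-numbered mice deviated from their group means with correlations of -0.152, -0.133, -0.113 and 0.0285, and most mice correlated best with another number. Such correlations cannot exclude a weak shared effect. Scaling by total count moved the median of all genes to -0.08. Depth limits Pgf, Vegfc and Flt4, and with 4 mice a group the exact test cannot go below 0.0286.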
